A study of Homo sapiens with 12 samples.

Results

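Iohexol is an iodinated, non-ionic contrast medium that is given for X-ray imaging and can injure the renal tubule. Here its effect was read across all genes in HK-2 cells, a line of human proximal tubule epithelium immortalized with viral oncogenes, after 48 h with iohexol at 75 mg I/mL. The comparison took the 3 libraries labelled Iohexol against the 3 labelled Control, which received water, so 6 of the 12 samples of the series entered it. The remaining samples were HK-2 cells treated for 48 h with cisplatin (5 μM) or vancomycin (4 mM), 3 libraries each, and they served only for direct contrasts with iohexol. All groups were grown in the same medium with serum. The labels do not say how long the controls were cultured, and nothing in them says that the 3 libraries of a group came from separate cultures, so the p-values measure the spread between these libraries, which may be technical. Of 58735 genes in the count table, 15657 had enough counts to be tested.

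Contrast media at high dose raise the osmolality of the fluid around the cells. Tubule cells of the kidney answer hypertonic fluid by taking up or making small organic osmolytes (inositol, betaine, taurine, sorbitol and glycerophosphocholine), a program driven by the transcription factor NFAT5. Metallothioneins are small cysteine-rich proteins that hold zinc and copper, and their genes are switched on by MTF1 when free zinc rises. Both systems were described here beside lists for stress, metabolism, growth, signaling, matrix and tubule function.

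Each library held between 14057282 and 16589507 counts over genes. Libraries of the same group differed beyond counting error: the chi-square statistic per degree of freedom was 3.24 for Control replicates 2 and 3 but 8.03 and 10.8 for the pairs with Control replicate 1, and 3.82 for Iohexol replicates 1 and 2 but 17.5 and 16.5 for the pairs with Iohexol replicate 3. These 2 libraries stood apart within their groups, and they are referred to by number below (Control 1, Iohexol 3). Where a count on a list moved by over 1.5 times with 1 library left out, or with scaling by library size alone, the new count is given with the library named. Losses with the replicate block are left out there and summarized at the end. Markers of the labelled cell type were present in part, with 7 of 15 proximal tubule markers tested and a summed level of 565 to 683 CPM in the controls and 755 to 944 CPM with iohexol. CPM scale counts to a fixed library total and are not per length, so levels are not compared between genes. PAX8, a nephron transcription factor, was read at 331, 377 and 416 CPM in the controls and 648, 674 and 520.2 CPM with iohexol, and the brush border enzymes GGT1 and MME (neprilysin) were also above 50 CPM in every library. Most of the rise in the sum came from PAX8 (log2 fold change 0.75). MME (0.70) rose too, while GGT1 (-0.34) did not pass (adjusted p = 0.136). The summed level of the 6 epithelial markers went the other way, at 877 to 989 CPM in the controls and 699 to 862 CPM with iohexol. Of these 5 were tested and 2 passed, keratins that fell (-0.42 and -0.39). On the keratin list decreases numbered 2, and 1 to 2 with 1 library left out. CDH1 had too few counts to be tested (10 and 18). The mature carriers SLC22A6 and SLC22A8 were at 0 to 1 count over each group, and LRP2 (megalin) was at 0 counts in the controls and 1 with iohexol. Of 6 fibroblast markers 3 passed the filter (LUM, DCN and COL1A1), while the defining PDGFRA was at 0 and 2 counts. The summed level of the 6 fibroblast markers was 116 to 130 CPM in the controls and 106 to 115 CPM with iohexol. DCN (-0.96) fell, and LUM and COL1A1 did not pass the test. The summed level of the 4 endothelial markers was 1.46 to 1.66 CPM in the controls and 3.82 to 4.21 CPM with iohexol, nearly all of it from PECAM1, and that of the 5 leukocyte markers was 0.825 to 1.09 and 1.66 to 2.05 CPM, nearly all from CD14. PECAM1 (1.54) and CD14 (1.14) passed the test, and the part of such cells in other results was not tested. PTPRC, the common leukocyte antigen, was at 2 and 4 counts, and CDH5 of endothelium at 3 and 0. The CD14 call was lost without Control 2, Control 3, Iohexol 1, Iohexol 2 or Iohexol 3, with DESeq2 and with no count filter (adjusted p from 0.052 to 0.171). In bulk RNA a change in the number of cells that express a gene and a change per cell cannot be told apart.

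Differentially expressed genes (DEGs) were those with an adjusted p under 0.05 in edgeR's quasi-likelihood test (Benjamini-Hochberg over all genes tested) and a log2 fold change beyond 1 in size. Iohexol gave 630 DEGs that rose (4.02% of the genes tested) and 196 that fell (1.25%), 826 in all (5.28%). At the adjusted p alone, 1755 genes rose (11.2%) and 1529 fell (9.77%), and these percentages are the background for every list below. Genes that fell did so by less: the median size of the change was 0.77 on the log2 scale among the genes that rose and 0.49 among those that fell. The balance depended on the scaling, because with library size alone 67.3% of the calls were increases against 53.4% with TMM factors, which assume that most genes do not change. It also depended on the level of the gene. Among the 1119 genes under 1 CPM, 10.1% were DEGs that rose and 1.16% were DEGs that fell. Among the 2325 genes over 100 CPM, by contrast, 9.55% rose at the adjusted p and 24.2% fell. The lists below were not compared with genes of like level. Leaving out 1 library moved the calls at the adjusted p to between 1027 (without Control replicate 2) and 2377 (without Iohexol replicate 3) that rose, and to between 822 and 2167 that fell, with the same libraries left out.

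**Figure D1:**
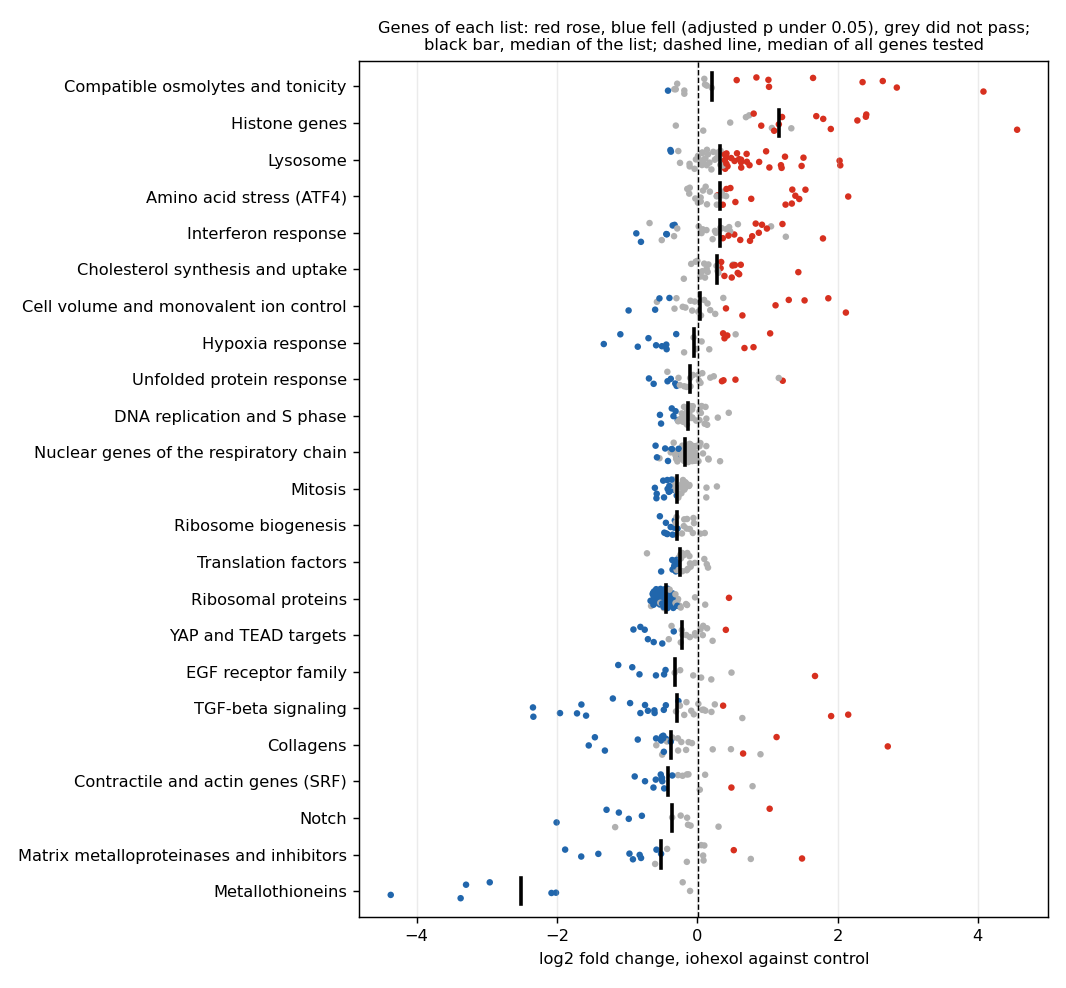
Each point is a gene of the named list, placed by its log2 fold change with iohexol against control. Red points rose and blue points fell at an adjusted p under 0.05, grey points did not pass, the black bar is the median of the list and the dashed line the median of all 15657 genes (0.01). The metallothioneins lie farthest to the left and histone genes lean to the right, while ribosomal proteins form a narrow group just below 0.

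Genes for organic osmolytes held several of the steepest increases. Of 19 tested genes on this list 9 rose and 1 fell, with a median log2 fold change of 0.21 against 0.01 over all genes, and 47.4% of them rose against 11.2% of all genes. All lists here were drawn up with earlier results of these data known, so this share describes the list and is not independent evidence. SLC6A12, the betaine carrier, was at 4.38, 2.85 and 3.31 CPM in the controls and 67.6, 56.6 and 49.02 CPM with iohexol (16.9-fold, log2 fold change 4.08 ± 0.18, adjusted p = 7.01e-08; the error of a fold change is its standard error throughout). SLC5A3, which imports myo-inositol, was at 96.2, 81.02 and 84.4 CPM in the controls and 488, 516 and 590.1 CPM with iohexol (log2 fold change 2.64 ± 0.11, adjusted p = 2.72e-08). AKR1B1, the aldose reductase that makes sorbitol, was at 1274, 1209 and 1191 CPM in the controls and 6571, 5929 and 5847 CPM with iohexol (log2 fold change 2.36 ± 0.08, adjusted p = 6.99e-09). In each of these genes every iohexol library lay far above every control. NFAT5, the regulator of the program, was at 162, 136 and 149.7 CPM in the controls and 172, 199 and 274 CPM with iohexol, a smaller rise of 0.56 (adjusted p = 0.0187), with Iohexol replicate 3 the highest. Further increases on the list were those of PNPLA6 (1.02), a lysophospholipase that releases glycerophosphocholine, HSPH1 (1.01), a chaperone induced by hypertonicity, SLC38A2 (0.84), a neutral amino acid carrier, and S100A4 (1.65), a calcium-binding protein. UCA1, a long noncoding RNA, was at 52.6, 50.8 and 50.9 CPM in the controls and 385, 361 and 335 CPM with iohexol (log2 fold change 2.85 ± 0.09, adjusted p = 6.99e-09). Not every osmolyte carrier took part: SLC6A6, the taurine carrier, was at 157, 159.7 and 182 CPM in the controls and 148, 154 and 126 CPM with iohexol, with iohexol just below the controls and no call (adjusted p = 0.231), and SLC44A1 (-0.42), a choline carrier, fell. The heat shock genes HSPA1A and HSPA1B did not pass. SLC5A3 and MRPS6 share exons on the same strand, so the rise of MRPS6 (2.08), a mitochondrial ribosomal protein, cannot be told apart from reads of SLC5A3. For the osmolyte list, decreases numbered 0 without Iohexol 2 and 4 without Iohexol 3. The NFAT5 call was lost without Control 2 or Control 3 (adjusted p from 0.0651 to 0.0964). The SLC44A1 call was lost without Iohexol 2 (adjusted p = 0.0539).

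Promoters of the osmolyte list were examined for the tonicity element. RefSeq promoters (GRCh38.p14, the 250 bases before the annotated start) were matched for 14 of the 20 genes, some with several starts. Its core TGGAAA, read on both strands, occurred before a start of PNPLA6 and of HSPA4L, and the full element before the same genes, compared with 18.0% and 4.16% of all 35116 promoters. The windows of SLC5A3, AKR1B1 and SLC38A2 did not hold these letters, which describes the window alone.

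**Figure D2:**
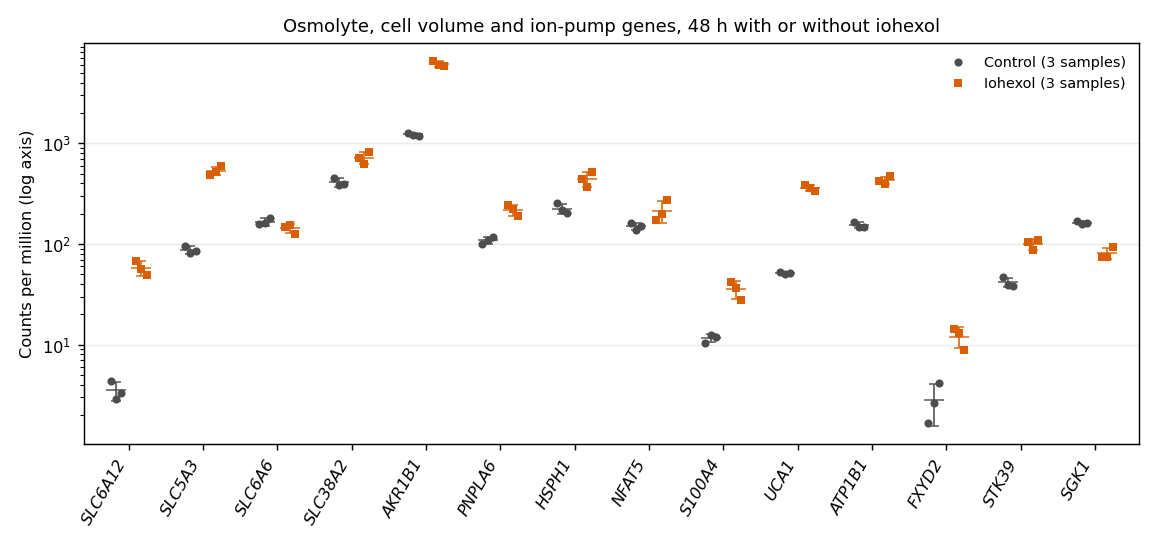
CPM on a log axis for genes of osmolyte handling, cell volume and ion pumping, with 1 point per library, 3 controls (grey) and 3 iohexol libraries (orange), and the mean with its SD. SLC6A12, SLC5A3, AKR1B1 and UCA1 show wide gaps between the groups, SLC6A6 a narrow step down, and SGK1 a clear gap downward.

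Genes for cell volume and ion balance changed in both directions, 7 up and 4 down of 26 tested. The increases included parts of the sodium pump. ATP1B1, its beta subunit, was at 165, 147 and 147 CPM in the controls and 425, 398 and 469 CPM with iohexol (log2 fold change 1.53 ± 0.09, adjusted p = 6.81e-07), and FXYD2, its gamma subunit, at 1.68, 2.601 and 4.17 CPM in the controls and 14.3, 12.9 and 8.85 CPM with iohexol (log2 fold change 2.12 ± 0.28, adjusted p = 2.49e-04). STK39 (1.30), the SPAK kinase that activates sodium-chloride cotransport, and KCNK5 (1.12), a potassium channel linked to volume regulation, rose as well. SGK1, a kinase that is commonly induced by hypertonic stress, fell and was at 169.7, 158 and 162 CPM in the controls and 74.7, 74.7 and 92.4 CPM with iohexol (log2 fold change -0.98 ± 0.10, adjusted p = 4.50e-05). None of the 5 LRRC8 subunits of the volume-regulated anion channel passed. Of 11 aquaporins 3 were tested, and AQP3 was at 0.219, 0.1903 and 0.265 CPM in the controls and 1.45, 2.102 and 0.991 CPM with iohexol, a rise of 2.75 at a very low level.

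Most metallothionein genes that could be tested fell. Of 13 genes on this list, MTF1 included, 8 were tested, 6 fell and 0 rose (9.77% of all genes fell), and leaving out any 1 library kept this count. Their promoters carry metal response elements, the sites that MTF1 binds, and the promoters of 2 genes that fell are shown with the promoter of the zinc exporter SLC30A1, a further known target. The sequences are from RefSeq (GRCh38.p14), written 5′ to 3′ on the strand of the gene and ending at the base before the start. Capitals mark the core TGCACNC or TGCGCNC on either strand.
MT2A: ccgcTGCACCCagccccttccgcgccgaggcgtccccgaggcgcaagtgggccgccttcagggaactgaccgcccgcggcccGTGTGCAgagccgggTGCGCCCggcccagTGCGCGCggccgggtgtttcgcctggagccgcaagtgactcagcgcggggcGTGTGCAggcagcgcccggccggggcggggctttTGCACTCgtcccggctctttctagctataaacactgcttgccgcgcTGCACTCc
MT1X: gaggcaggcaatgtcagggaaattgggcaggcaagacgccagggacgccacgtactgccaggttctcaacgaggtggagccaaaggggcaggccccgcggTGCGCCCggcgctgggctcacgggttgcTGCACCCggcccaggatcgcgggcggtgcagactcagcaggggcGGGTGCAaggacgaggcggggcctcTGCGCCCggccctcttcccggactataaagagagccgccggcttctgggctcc
SLC30A1: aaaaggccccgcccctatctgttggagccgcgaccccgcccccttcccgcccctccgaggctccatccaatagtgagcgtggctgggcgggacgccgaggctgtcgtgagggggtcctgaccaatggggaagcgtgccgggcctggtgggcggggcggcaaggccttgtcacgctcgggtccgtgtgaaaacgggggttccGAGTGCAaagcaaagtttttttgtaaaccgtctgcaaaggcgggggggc
MT2A (chr16:56608334-56608583, plus strand) held 7 cores, MT1X (chr16:56682220-56682469, plus strand) 4, and SLC30A1 (chr1:211579162-211579411, minus strand) 1. Over all promoters 24.8% held at least 1 core, 0.37% at least 4 and 0.0513% at least 6. Promoters were matched for 6 of the 13 genes.

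MT2A was at 1151, 1089.5 and 919 CPM in the controls and 269, 217 and 243 CPM with iohexol (log2 fold change -2.08 ± 0.11, adjusted p = 2.08e-07). MT1E was at 219.5, 224 and 182 CPM in the controls and 22.6, 17.2 and 19.03 CPM with iohexol (log2 fold change -3.37 ± 0.13, adjusted p = 1.68e-08), and MT1X at 21.5, 19.4 and 16.8 CPM in the controls and 1.93, 1.72 and 2.05 CPM with iohexol (log2 fold change -3.30 ± 0.18, adjusted p = 2.08e-07). The fall was deepest in MT1G, at 22.9, 22.5 and 15.6 CPM in the controls and 0.828, 1.08 and 0.925 CPM with iohexol (log2 fold change -4.37 ± 0.23, adjusted p = 2.08e-07). MT1F (-2.96) and MT1M (-2.01) fell too, and in all 6 genes no iohexol library reached the lowest control. MT1A did not pass, and MTF1 itself was at 39.1, 35.9 and 36.7 CPM in the controls and 31.5, 34.9 and 34.9 CPM with iohexol (adjusted p = 0.533). Among 17 tested zinc carriers 1 fell and 2 rose. The gene that fell was SLC30A1, which moves zinc out across the plasma membrane, at 187, 171 and 167 CPM in the controls and 73.8, 65.6 and 76.2 CPM with iohexol (log2 fold change -1.25 ± 0.10, adjusted p = 3.48e-06). The importers SLC39A6 (0.49) and SLC39A14 (0.37) rose by less. Metallothionein genes resemble each other, and the share of their 31-base sequences found in another gene ran from 4.18% in MT1F to 33.4% in MT1X, so the split of reads among them is uncertain. For the zinc carriers list, increases numbered 1 without Control 2 and 4 without Iohexol 3 and with library size alone, and decreases numbered 2 without Iohexol 3. The SLC39A14 call was lost without Control 2 (adjusted p = 0.0573).

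**Figure D3:**
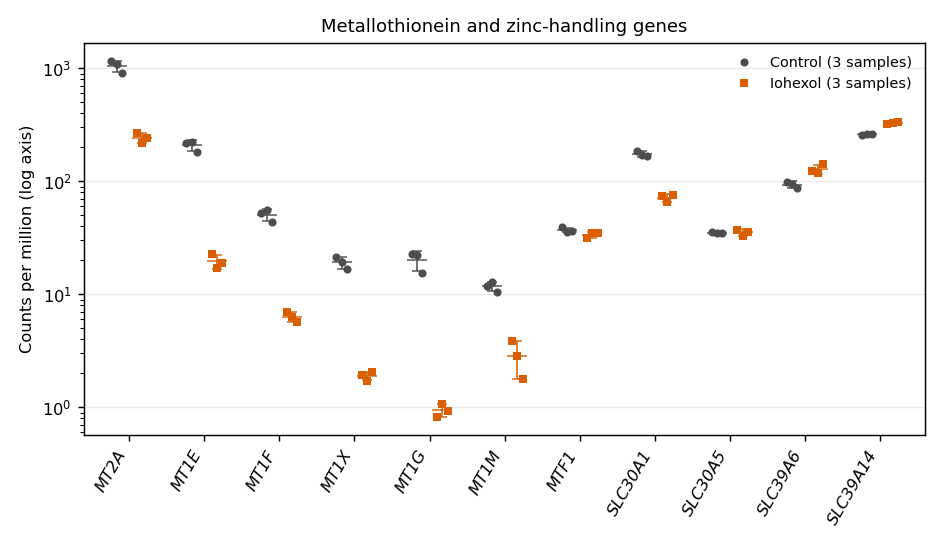
CPM on a log axis for metallothionein and zinc genes, 1 point per library with mean and SD, controls in grey and iohexol in orange. The 6 metallothioneins and SLC30A1 are lower with iohexol without overlap, MTF1 and SLC30A5 differ little between the groups, and SLC39A6 and SLC39A14 are slightly higher.

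Genes of amino acid supply leaned up. The amino acid stress list holds the factor ATF4 with other regulators, its targets and amino acid carriers, genes induced when amino acids are short or eIF2 is phosphorylated. It had 13 increases and 0 decreases among 30 tested genes (43.3% up against 11.2% of all genes), with a median of 0.32, and its 17 tested targets alone had 6 increases. GDF15, a secreted stress cytokine, was at 101, 99.9 and 111 CPM in the controls and 494, 484 and 375 CPM with iohexol (log2 fold change 2.15 ± 0.11, adjusted p = 2.08e-07). CTH, which makes cysteine, was at 10.5, 10.8 and 9.203 CPM in the controls and 28.02, 23.9 and 29.6 CPM with iohexol (log2 fold change 1.45 ± 0.13, adjusted p = 1.55e-05), and CHAC1, which degrades glutathione, at 4.82, 7.04 and 7.28 CPM in the controls and 17.2, 17.6 and 12.9 CPM with iohexol (log2 fold change 1.35 ± 0.19, adjusted p = 3.48e-04). SLC6A9 (1.54), a glycine carrier, and DDIT3 (1.26), which encodes the factor CHOP, rose likewise. The regulator ATF4 was at 275, 323 and 318 CPM in the controls and 335, 315 and 248 CPM with iohexol (adjusted p = 0.964), and TRIB3, SESN2 and ATF3 did not pass. ASNS (asparagine synthetase) was counted at 0.511, 1.08 and 0.331 CPM in the controls and 1.45, 1.85 and 1.72 CPM with iohexol, and 71.3% of its 31-base sequences also occur in other annotated genes, 1 of which overlaps it on the same strand, so its value is uncertain. For the amino acid stress list, increases numbered 7 without Iohexol 1 and 8 without Control 1 or Iohexol 2. The ASNS call was lost without Control 1, Control 3, Iohexol 1 or Iohexol 2 (adjusted p from 0.0611 to 0.122).

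Amino acid carriers were also counted as families, which share members with the lists above. Of 7 SLC7 genes 6 rose and 0 fell, of 10 SLC38 genes 5 rose and 0 fell, and of 9 SLC6 genes 5 rose and 0 fell. SLC7A11, the cystine importer, was at 40.1, 32.1 and 29.6 CPM in the controls and 56.9, 48.7 and 63.5 CPM with iohexol (log2 fold change 0.77 ± 0.14, adjusted p = 0.00205). SLC7A7 (0.64) and SLC7A5 (0.42) carry large neutral and basic amino acids, and their partner SLC3A2 (0.47) rose with them. SLC38A7 (0.67) is a glutamine carrier of the lysosome, and SLC6A13, a GABA and taurine carrier, was at 2.19, 1.52 and 3.71 CPM in the controls and 8.56, 7.39 and 6.41 CPM with iohexol (1.63 on the log2 scale). SLC7A10 (1.96), SLC38A3 (2.53), SLC38A4 (3.20) and SLC38A11 (1.83) rose as well, from low levels. The cytosolic tRNA synthetases, many of which are ATF4 targets, did not move as a group: 2 rose, among them GARS (0.36), and 5 fell, led by FARSB (-0.74), of 20 tested. For the SLC6 family, increases numbered 3 without Control 2, Control 3, Iohexol 1 or Iohexol 2. For the cytosolic tRNA synthetases list, increases numbered 0 without Control 2 or Control 3, 1 without Iohexol 1 or Iohexol 2 and 4 without Iohexol 3 and with library size alone, and decreases numbered 3 without Control 2, Control 3, Iohexol 1 or Iohexol 2 and with library size alone. The SLC7A5 call was lost without Control 1, Control 2, Iohexol 1 or Iohexol 2 (adjusted p from 0.0796 to 0.127). The SLC3A2 call was lost without Iohexol 1 (adjusted p = 0.0518). The GARS call was lost without Control 2 or Control 3 (adjusted p from 0.0783 to 0.0877).

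Several chaperones of the endoplasmic reticulum fell modestly. The unfolded protein response list had 4 increases and 6 decreases of 25. HSPA5 (BiP), the main chaperone of this compartment, was at 1015, 981 and 911 CPM in the controls and 729, 706 and 746 CPM with iohexol (log2 fold change -0.38 ± 0.08, adjusted p = 0.00491), and PDIA4 (-0.69) and HSP90B1 (-0.62) fell further. Of the increases 2 were stress sensors, with EIF2AK3, the kinase PERK, at 56.7, 52.98 and 48.5 CPM in the controls and 118, 124 and 116 CPM with iohexol (log2 fold change 1.22 ± 0.09, adjusted p = 3.80e-06). The others were the chaperone DNAJB9 (0.54) and the degradation factor HERPUD1 (0.35). XBP1 and ATF6 did not pass. Of other heat shock proteins HSP90AB1 (-0.46), HSP90AA1 (-0.34), HSPB1 (-0.35) and the mitochondrial chaperonin HSPD1 (-0.41) fell, while the small heat shock protein CRYAB (1.12) and, as given above, HSPH1 rose. For the unfolded protein response list, increases numbered 2 without Control 2, Control 3 or Iohexol 1. The HERPUD1 call was lost without Control 2, Control 3 or Iohexol 1 (adjusted p from 0.0571 to 0.105). The HSP90AA1 call was lost without Control 1, Control 2, Iohexol 1 or Iohexol 2 and with library size alone (adjusted p from 0.0781 to 0.146). The HSPB1 call was lost without Control 2 (adjusted p = 0.0638).

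Many lysosomal genes rose. Of 57 tested genes 27 rose and 2 fell, 47.4% up against the background of 11.2%, with a median of 0.33. GPNMB, a membrane glycoprotein of stressed lysosomes, was at 31.8, 25.3 and 27.8 CPM in the controls and 108, 109 and 120.3 CPM with iohexol (log2 fold change 2.03 ± 0.11, adjusted p = 2.63e-07). The hydrolases included NEU1, a sialidase, at 132, 138 and 135 CPM in the controls and 339, 315 and 285 CPM with iohexol (log2 fold change 1.25 ± 0.09, adjusted p = 2.15e-06), and CTSD, a protease, at 159.8, 228 and 227 CPM in the controls and 665, 629 and 385 CPM with iohexol (log2 fold change 1.49 ± 0.19, adjusted p = 1.84e-04), where Iohexol replicate 3 was lower than the other iohexol libraries but still above every control. For CTSD 55.5% of the 31-base sequences occur in other genes, so its level is uncertain. NAGLU (1.203), ASAH1 (1.03) and CTSA (0.71), which act on glycosaminoglycans, ceramide and glycoproteins, rose. The calcium channel MCOLN1 (1.19), the sphingolipid activator PSAP (0.53) and the cholesterol exporter NPC1 (0.42) rose as well. Of the 27 increases 8 were DEGs. Subunits of the proton pump V-ATPase made up 7 of the 27, and 0 of these subunits were DEGs. Of the transcription factors that drive lysosomal genes, TFEB and TFE3 did not pass and MITF (-0.38) fell. Autophagy genes stayed near the background, with 3 of 21 up, among them the cargo receptor SQSTM1 (0.47). For the lysosome list, decreases numbered 0 without Iohexol 2 and 1 without Control 1, Control 2, Control 3 or Iohexol 1 and with library size alone. For the autophagy list, increases numbered 1 without Control 2 or Control 3, 5 without Iohexol 3 and 6 with library size alone. The MITF call was lost without Iohexol 2 (adjusted p = 0.0578).

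Lipid genes changed in both directions. The cholesterol synthesis list had 10 increases and 0 decreases of 26 tested (38.5% up, median 0.28), the members being mostly enzymes of the later steps such as LSS (0.60), SC5D (0.58), EBP (0.54) and DHCR7 (0.50). HMGCS1 and INSIG1, which are strongly regulated by sterols, did not pass. Sterol export was split: ABCA1 (-1.06), which hands cholesterol to lipoproteins, fell and was at 392, 419.6 and 419.7 CPM in the controls and 172, 203 and 202 CPM with iohexol, whereas APOE was at 46.4, 60.8 and 59.8 CPM in the controls and 131, 115 and 79.6 CPM with iohexol (log2 fold change 1.001 ± 0.17, adjusted p = 0.00125). Fatty acid synthesis had 4 increases and 2 decreases of 13, and fatty acid oxidation 6 and 2 of 20. SCD (0.68), which desaturates fatty acids, and ME1 (0.70) rose, and ELOVL5 (-0.37) fell. PDK4, the kinase that shuts glucose carbon out of mitochondria, was at 30.5, 22.97 and 23.7 CPM in the controls and 126, 109 and 174 CPM with iohexol (log2 fold change 2.44 ± 0.17, adjusted p = 2.01e-06), while the PPAR target ANGPTL4 (-1.11) fell. For the cholesterol list, increases numbered 3 without Control 2 and 5 without Control 3, Iohexol 1 or Iohexol 2. For the fatty acid synthesis list, increases numbered 2 without Control 2, Control 3 or Iohexol 2, and decreases numbered 1 without Control 2, Control 3, Iohexol 1 or Iohexol 2 and with library size alone. For the fatty acid oxidation list, increases numbered 2 without Control 3 and 3 without Control 1, Control 2, Iohexol 1 or Iohexol 2, and decreases numbered 1 without Control 2, Control 3, Iohexol 1 or Iohexol 2 and with library size alone. The LSS call was lost without Iohexol 1 (adjusted p = 0.0561). The SC5D call was lost without Control 2 or Control 3 (adjusted p from 0.0591 to 0.0736). The EBP call was lost without Iohexol 1 (adjusted p = 0.0603). The DHCR7 call was lost without Control 2, Iohexol 1 or Iohexol 2 (adjusted p from 0.067 to 0.0786).

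Genes of glucose use and of the hypoxia response did not move as a block. Glycolysis had 0 increases and 5 decreases of 23, led by HK2 (-0.67), the first enzyme of the path, and PGK1 (-0.56). HIF1A was at 648, 541 and 543 CPM in the controls and 1085, 1006 and 1380.2 CPM with iohexol (log2 fold change 1.04 ± 0.12, adjusted p = 9.59e-05), and its relative EPAS1 (0.80) rose too. Among 21 tested genes of the hypoxia list 6 rose and 9 fell, however, and the targets CA12 (-1.10), a carbonic anhydrase, and LOX (-0.85), which crosslinks collagen, were among those that fell. VEGFA was at 98.1, 107 and 114 CPM in the controls and 153, 149 and 116 CPM with iohexol (0.43). The NRF2 and pentose phosphate list had 8 increases and 3 decreases of 24, and iron genes 6 and 2 of 21. Of the NRF2 targets 2 were DEGs that rose, and the highest log2 fold change among these targets was 3.24. FTH1, the ferritin heavy chain, was at 1328, 1401 and 1449.8 CPM in the controls and 2819, 2858 and 2490.4 CPM with iohexol (log2 fold change 1.005 ± 0.08, adjusted p = 4.82e-06), although 46.7% of its 31-base sequences occur in other genes. GPX3 (1.14), an extracellular glutathione peroxidase, rose, TXNRD1 (-0.63) and TXN (-0.50) of the thioredoxin system fell, and HMOX1 and GCLM did not pass. SOD2, the mitochondrial superoxide dismutase, was at 296, 271 and 264 CPM in the controls and 570.1, 569.6 and 574 CPM with iohexol (log2 fold change 1.08 ± 0.08, adjusted p = 3.14e-06). For the glycolysis list, increases numbered 1 without Iohexol 3 and with library size alone, and decreases numbered 3 without Control 2. For the hypoxia response list, increases numbered 3 without Control 2 or Iohexol 1. For the NRF2 list, increases numbered 4 without Control 2 and 5 without Control 3 or Iohexol 2. For the iron and heme list, increases numbered 3 without Control 1, Control 2, Control 3, Iohexol 1 or Iohexol 2, and decreases numbered 1 without Control 2, Control 3 or Iohexol 1. The VEGFA call was lost without Control 1, Control 2, Iohexol 1 or Iohexol 2 (adjusted p from 0.0621 to 0.0892).

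Genes for making proteins fell by small amounts but widely. Of 47 proteins of the large ribosomal subunit 37 fell and 0 rose, with a median of -0.46, and of 31 of the small subunit 23 fell and 1 rose, with a median of -0.43. No member was a DEG. RPL10 was at 845, 844 and 796 CPM in the controls and 559, 528 and 509 CPM with iohexol (log2 fold change -0.60 ± 0.08, adjusted p = 2.11e-04), and RPS12 at 628, 647 and 581 CPM in the controls and 415, 384 and 341 CPM with iohexol (log2 fold change -0.67 ± 0.09, adjusted p = 3.38e-04). The exception, RPS23 (0.45), was counted at 12.2, 15.04 and 16.2 CPM in the controls and 21.5, 19.997 and 16.5 CPM with iohexol. With library size alone 34 and 20 members fell of the large and small subunits. Ribosome biogenesis had 10 decreases and 0 increases of 24, among them NPM1 (-0.53) and NCL (-0.44) of the nucleolus. Translation factors had 11 and 0 of 30, mostly eIF3 subunits such as EIF3E (-0.35). For the large ribosomal subunit, decreases numbered 22 without Control 2. For the small ribosomal subunit, increases numbered 0 without Control 1, Control 2, Control 3, Iohexol 1 or Iohexol 2, and decreases numbered 14 without Control 2. For the ribosome biogenesis list, decreases numbered 4 without Control 2 and with library size alone, 5 without Control 3 or Iohexol 2 and 6 without Iohexol 1. For the translation factors list, increases numbered 1 without Iohexol 3, and decreases numbered 0 without Control 2, 1 without Iohexol 2, 3 with library size alone and 4 without Control 1, Control 3 or Iohexol 1. The RPS23 call was lost without Control 1, Control 2, Control 3, Iohexol 1 or Iohexol 2, with RLE factors, with limma-voom and with no count filter (adjusted p from 0.0514 to 0.17). The EIF3E call was lost without Control 1, Control 2, Iohexol 1 or Iohexol 2, with at least 10 counts in every sample and with library size alone (adjusted p from 0.0548 to 0.174).

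Proteasome subunits (10 down and 1 up of 37, median -0.24) and the chaperonin CCT (5 down of 9, median -0.28) also leaned down. The nuclear genes of the respiratory chain had 8 decreases and 0 increases of 63, 12.7% against the background of 9.77%, with a median of -0.17. That background covers genes of every level. Of all genes over 100 CPM 24.2% fell, with a median of -0.12, and of those at 30 to 100 CPM 11.5% fell. Whether the proteasome, CCT and respiratory chain genes fell more than other genes of like level was not tested. Of the 13 protein genes of the mitochondrial genome 1 rose, MT-ATP8 (0.82), and 0 fell, and MT-ATP6, which overlaps it, did not pass. Reads on mitochondrial genes made up 5.03% to 5.73% of the counts in the controls and 5.27% to 6.20% with iohexol. For the proteasome subunits, increases numbered 0 without Control 2, Control 3, Iohexol 1 or Iohexol 2, and decreases numbered 1 without Control 2, 2 without Iohexol 2, 3 with library size alone and 4 without Control 3. For the chaperonin CCT, decreases numbered 0 without Control 2 or Iohexol 2, 2 without Control 3, 3 without Control 1 and with library size alone and 8 without Iohexol 3. For the respiratory chain list, increases numbered 1 without Iohexol 3, and decreases numbered 3 without Control 2, 4 without Iohexol 2 and with library size alone and 5 without Control 1 or Control 3. For the mitochondrial genome, increases numbered 2 with library size alone, and decreases numbered 4 without Iohexol 3.

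Genes of cell division leaned down. The mitosis list had 13 decreases and 0 increases of 32 tested (40.6% against 9.77%, median -0.29), and all iohexol libraries lay below all controls for 23 of them, which compares with 20.9% of all genes. AURKB, a mitotic kinase, was at 94.7, 103 and 89.1 CPM in the controls and 67.3, 56.7 and 62.5 CPM with iohexol (log2 fold change -0.58 ± 0.10, adjusted p = 0.00142). MKI67, the proliferation antigen, was at 668, 625 and 609 CPM in the controls and 437, 499.99 and 600.03 CPM with iohexol and did not pass (adjusted p = 0.101). In genes such as CENPE (149.8, 128 and 120.2 CPM in the controls and 67.03, 75.6 and 113 CPM with iohexol; -0.60), the motor of the kinetochore, Iohexol replicate 3 lay nearest to the controls. S phase genes had 6 decreases of 40 (median -0.13), TYMS (-0.53) and GINS1 (-0.52) among them. Of the regulators, CDKN1C (p57) was at 38.6, 36.2 and 38.7 CPM in the controls and 115, 127 and 86.8 CPM with iohexol (log2 fold change 1.57 ± 0.13, adjusted p = 7.92e-06) and CDK6 at 572, 525 and 518 CPM in the controls and 183, 209.7 and 252 CPM with iohexol (log2 fold change -1.29 ± 0.11, adjusted p = 1.07e-05). p21, CDKN1A (0.66), rose, and 2 of 23 genes of the p53 list did while 1 fell, and MDM2 and BAX did not pass. The BCL2 and caspase list had 3 increases and 2 decreases of 26. HRK, a BH3-only activator of cell death, was at 4.97, 5.71 and 5.098 CPM in the controls and 16.4, 19.3 and 13.7 CPM with iohexol (log2 fold change 1.68 ± 0.17, adjusted p = 2.79e-05), the protective MCL1 (-0.49) fell, and no tested caspase passed. For the mitosis list, decreases numbered 5 without Iohexol 2, 7 without Iohexol 1, 8 without Control 1 and 24 without Iohexol 3. For the S phase list, decreases numbered 2 without Control 2 or Control 3 and 3 without Control 1, Iohexol 1 or Iohexol 2 and with library size alone. For the p53 list, increases numbered 1 without Control 2, Control 3, Iohexol 1 or Iohexol 2, 4 with library size alone and 6 without Iohexol 3, and decreases numbered 0 without Control 2 or Control 3 and with library size alone and 2 without Iohexol 2. For the BCL2 and caspase list, increases numbered 1 without Control 2 or Control 3 and 6 without Iohexol 3 and with library size alone, and decreases numbered 1 without Control 2 or Control 3. The CENPE call was lost without Control 1, Iohexol 1 or Iohexol 2 (adjusted p from 0.0656 to 0.0902).

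Histone genes had the highest median of the 237 gene families with at least 8 tested genes. Of 19 tested 12 rose and 0 fell, with a median of 1.16, and 11 of the increases came from the cluster on chromosome 6. HIST1H2AC was at 4.89, 4.12 and 4.77 CPM in the controls and 23.7, 27.8 and 19.9 CPM with iohexol (log2 fold change 2.41 ± 0.17, adjusted p = 1.73e-06), and HIST1H2BD at 1.899, 2.98 and 2.65 CPM in the controls and 12.3, 14.5 and 12.4 CPM with iohexol (log2 fold change 2.40 ± 0.19, adjusted p = 4.29e-06). HIST1H1E, a linker histone, was at 0, 0 and 0.132 CPM in the controls and 1.59, 0.955 and 1.12 CPM with iohexol, with 2 counts over the controls. Libraries were made from poly(A) RNA, and most histone transcripts lack a poly(A) tail, so these counts hold only the polyadenylated share. The number that rose was 9 without Control replicate 2 or Iohexol replicate 2, 6 where every sample had to hold 10 counts, and 14 with no filter. Histone genes resemble each other, and 14.8% of the 31-base sequences of HIST1H2BD occur in other genes.

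Many genes of TGF-beta signaling and of cell contraction fell. The TGF-beta list had 16 decreases and 3 increases of 32 (median -0.29), and leaving out any 1 library gave 15 to 17 decreases. Among ligands, INHBA, the activin A subunit, was at 473, 493 and 476 CPM in the controls and 149, 145 and 153 CPM with iohexol (log2 fold change -1.65 ± 0.08, adjusted p = 1.06e-07), and TGFB2 (-0.70) fell. The binding proteins LTBP2 (-1.71) and LTBP1 (-1.204), which hold latent TGF-beta in the matrix, fell, as did the receptors TGFBR1 (-0.61) and TGFBR2 (-0.48), while betaglycan, TGFBR3 (1.91), rose. Of the targets, TGFBI was at 1447, 1465 and 1466 CPM in the controls and 370.2, 378 and 349.9 CPM with iohexol (log2 fold change -1.96 ± 0.08, adjusted p = 2.23e-08), and ID3 (-1.59) and ID1 (-0.96), targets of BMP signals, fell. The inhibitor SMAD7 did not pass, and GDF15, a distant member of the family, rose.

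Notch genes went the same way, 5 down and 1 up of 13 tested. JAG1, a ligand, was at 679, 672 and 669.995 CPM in the controls and 154, 165 and 171 CPM with iohexol (log2 fold change -2.01 ± 0.08, adjusted p = 2.72e-08), and the target genes HES1 (50.02, 52.7 and 45.4 CPM in the controls and 25.6, 20.3 and 20.6 CPM with iohexol; log2 fold change -1.12 ± 0.12, adjusted p = 6.09e-05) and HEY1 (-1.29) fell. The receptors NOTCH1, NOTCH2 and NOTCH3 did not pass. The YAP and TEAD list, regulators included, had 7 decreases and 1 increase of 22, with CTGF (-0.81) and the coactivator WWTR1 (-0.75) among those that fell and ANKRD1 not called. The contractile list had 10 decreases of 18 (55.6%, median -0.41). ACTB, often used as a reference gene, was at 6142, 6399.7 and 6114 CPM in the controls and 4312, 4188 and 4266 CPM with iohexol (log2 fold change -0.51 ± 0.07, adjusted p = 1.93e-04), and TPM1 (-0.89), VCL (-0.62) and MYH9 (-0.50) fell with it. For the Notch list, increases numbered 2 without Iohexol 3. For the YAP list, increases numbered 0 without Control 2, Iohexol 1 or Iohexol 2 and 2 without Iohexol 3 and with library size alone.

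**Figure D4:**
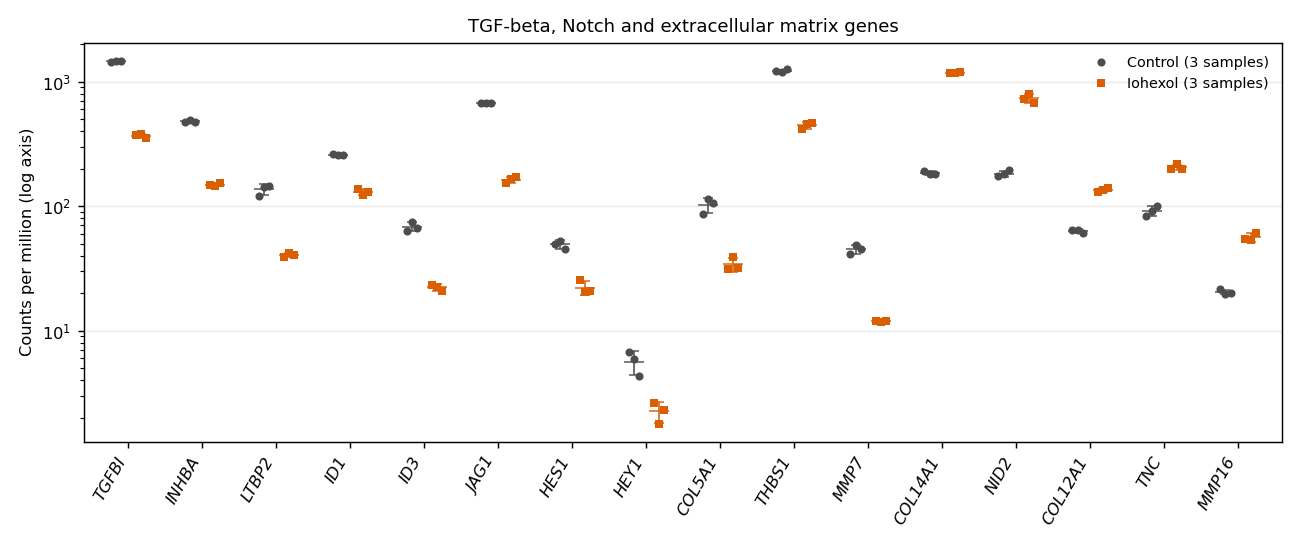
CPM on a log axis for genes of TGF-beta and Notch signaling and of the matrix, 1 point per library with mean and SD, controls in grey and iohexol in orange. From TGFBI to MMP7 all iohexol libraries lie below all controls, and from COL14A1 to MMP16 all lie above them.

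On each list of matrix genes more genes fell than rose, and several increases were large. Collagens and their enzymes had 12 decreases and 3 increases of 29 tested (median -0.38). COL5A1 was at 86.9, 115 and 106 CPM in the controls and 31.3, 39.2 and 31.8 CPM with iohexol (log2 fold change -1.55 ± 0.13, adjusted p = 5.88e-06), and the basement membrane chain COL4A1 (-0.52) and the crosslinking enzyme LOXL1 (-1.32) fell. COL14A1, a collagen that binds to fibrils, was at 191, 181 and 182 CPM in the controls and 1181, 1177 and 1193 CPM with iohexol (log2 fold change 2.72 ± 0.08, adjusted p = 4.23e-09), and COL12A1 (1.13), of the same subfamily, rose too. In the basement membrane LAMC1 (-0.90) fell, whereas NID2 (nidogen) was at 173, 182 and 193 CPM in the controls and 732, 796 and 669 CPM with iohexol (log2 fold change 2.04 ± 0.09, adjusted p = 7.06e-08). Laminins and integrins had 6 increases and 8 decreases of 27, and the list of matricellular, proteoglycan and hyaluronan genes 6 and 11 of 33. Thrombospondin THBS1 (-1.41) and fibrillin FBN1 (-1.33) fell, tenascin TNC (1.197) rose, and FN1 (fibronectin) was at 21211, 21577 and 21964 CPM in the controls and 20492, 23875 and 21961 CPM with iohexol (adjusted p = 0.517). Metalloproteinases with their inhibitors had 9 decreases and 2 increases of 19. MMP7 was at 41.04, 49.1 and 44.9 CPM in the controls and 12.01, 11.7 and 11.9 CPM with iohexol (log2 fold change -1.88 ± 0.12, adjusted p = 6.81e-07), ADAM12 (-1.65) and MMP14 (-0.80) fell, and MMP16 (1.49) rose. The plasminogen activator PLAT was at 36.2, 37.7 and 40.1 CPM in the controls and 93.9, 73.4 and 92.9 CPM with iohexol (log2 fold change 1.23 ± 0.11, adjusted p = 1.52e-05) and the receptor PLAUR (-1.16) fell. For the collagens list, increases numbered 5 without Iohexol 3.

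Growth factor and early response genes fell in part. Of 13 genes of the EGF receptor family 6 fell, among them the ligands AREG (-1.13), EREG (-0.93) and NRG1 (-0.82). The receptor ERBB3 was at 7.01, 9.14 and 8.34 CPM in the controls and 27.3, 29.2 and 20.02 CPM with iohexol (log2 fold change 1.68 ± 0.17, adjusted p = 3.25e-05) and EGFR did not pass. Early response factors had 6 decreases and 2 increases of 24, with EGR1 at 9.78, 10.2 and 9.27 CPM in the controls and 2.97, 1.72 and 2.97 CPM with iohexol (log2 fold change -1.90 ± 0.21, adjusted p = 7.09e-05), FOSL1 at 108, 107 and 114 CPM in the controls and 43.8, 44.1 and 46.2 CPM with iohexol (log2 fold change -1.26 ± 0.09, adjusted p = 1.97e-06) and KLF4 (0.98) among the increases. FOS did not pass. The ERK phosphatase DUSP6 was at 47.4, 44.8 and 42.4 CPM in the controls and 110.4, 98.5 and 116 CPM with iohexol (log2 fold change 1.31 ± 0.10, adjusted p = 3.21e-06), and the list of ERK feedback genes had 6 increases and 2 decreases of 21. WNT genes had 6 decreases of 24, led by the receptor FZD7 (-1.21), and 2 increases, among them the WNT deacylase NOTUM (2.70). Glucocorticoid responsive genes had 6 decreases and 3 increases of 14. The mineralocorticoid receptor NR3C2 (1.15) rose and the glucocorticoid receptor NR3C1 (-0.40) fell. For the early response list, increases numbered 1 without Control 1, Control 3 or Iohexol 1 and 4 without Iohexol 3, and decreases numbered 3 without Control 3. For the ERK feedback list, increases numbered 3 without Control 2 or Control 3, and decreases numbered 0 without Control 2 and 1 without Control 1, Control 3 or Iohexol 1 and with library size alone. For the glucocorticoid response list, increases numbered 1 without Control 2. The NR3C1 call was lost without Control 1, Control 2, Iohexol 1 or Iohexol 2 (adjusted p from 0.0549 to 0.0951).

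Immune genes moved both ways. The interferon list had 12 increases and 6 decreases of 39 (30.8% up). IFIT2 (1.21) and IFIT3 (0.83) were among the genes that rose. NF-kB and Toll-like receptor genes had 4 and 6 of 24, complement and coagulation 6 and 6 of 22, and MHC class I presentation 1 and 3 of 15. Of the chemokine and cytokine list 6 rose and 5 fell of 25. IL6 was at 74.9, 58.3 and 66.9 CPM in the controls and 118, 124 and 120.3 CPM with iohexol (log2 fold change 0.89 ± 0.11, adjusted p = 1.17e-04), while IL11 was at 14.2, 19.6 and 19.5 CPM in the controls and 6.28, 5.795 and 4.62 CPM with iohexol (log2 fold change -1.64 ± 0.18, adjusted p = 5.42e-05), CCL20 (-1.87) and LIF (-1.01) fell and CXCL8 was at 1129, 1019 and 983 CPM in the controls and 1109.9, 1005 and 1311 CPM with iohexol (adjusted p = 0.279). Of 4 genes that the study picked from these samples, and which are therefore not independent evidence, TNFAIP6, a hyaluronan-binding protein, was at 13.4, 13.5 and 10.5 CPM in the controls and 3.24, 3.38 and 2.18 CPM with iohexol (log2 fold change -2.05 ± 0.20, adjusted p = 2.69e-05), and AOC3, an amine oxidase, at 0.438, 0.444 and 0.728 CPM in the controls and 1.86, 1.15 and 1.65 CPM with iohexol (1.55). TLR4, the receptor for lipopolysaccharide, was at 0.511, 0.317 and 0.5296 CPM in the controls and 0.828, 0.955 and 1.06 CPM with iohexol and did not pass (adjusted p = 0.0836), and IRF4 had too few counts to be tested. The study called genes at an unadjusted p under 0.05, a looser threshold, and took those shared by its drugs. It also measured the 4 genes in HK-2 cells by PCR and western blot, and reported the directions of its sequencing. In kidneys of mice given iohexol it reported higher mRNA of all 4 genes, so TNFAIP6 went opposite to the cells. For protein in these mice it reported raised TLR4 in serum and lowered TNFAIP6 in urine. The other differences in serum and urine with iohexol were not significant there. For the NF-kB list, increases numbered 1 without Control 2 and 2 without Control 3, and decreases numbered 2 without Control 2. For the MHC class I list, increases numbered 2 without Iohexol 3, and decreases numbered 1 without Control 2. The AOC3 call was lost without Control 1, Control 2 or Iohexol 1 (adjusted p from 0.0506 to 0.0766).

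Tubule genes and junctions also changed. Of 20 tested genes of proximal tubule transport, out of 34 listed, 7 rose and 3 fell. The members named next all rose. Those that fell are not named here, and the lowest log2 fold change on the list was -0.59. AMN, which anchors the endocytic receptor cubilin, was at 4.38, 5.27 and 7.88 CPM in the controls and 18.5, 18.6 and 12.6 CPM with iohexol (log2 fold change 1.54 ± 0.22, adjusted p = 4.80e-04), and CUBN (1.48), cubilin itself, and the glucose carrier SLC2A2 (1.40) rose at low levels. ANPEP, a brush border peptidase, was at 1.46, 1.65 and 1.26 CPM in the controls and 5.04, 5.03 and 4.29 CPM with iohexol (log2 fold change 1.75 ± 0.23, adjusted p = 2.54e-04). CDH16, the kidney cadherin, was at 9.57, 12.7 and 12.2 CPM in the controls and 66.7, 59.4 and 46.3 CPM with iohexol (log2 fold change 2.36 ± 0.16, adjusted p = 1.20e-06), while CDH6 (-1.59), CDH2 (-0.77) and the intermediate filament VIM (-0.84) fell. Tight junction genes TJP3 (1.57) and CLDN3 (1.33) rose and CLDN2 (-0.45) fell. The injury markers did not move together, 6 up and 4 down of 14: LCN2 (NGAL) was at 2.12, 2.35 and 2.91 CPM in the controls and 10.8, 9.43 and 7.66 CPM with iohexol (log2 fold change 1.95 ± 0.21, adjusted p = 4.87e-05), HAVCR1 (KIM-1) at 198, 188 and 187 CPM in the controls and 172, 198 and 218 CPM with iohexol (adjusted p = 0.636) and VCAM1 at 20.4, 19.9 and 19.7 CPM in the controls and 3.87, 5.29 and 4.43 CPM with iohexol (log2 fold change -2.10 ± 0.15, adjusted p = 2.38e-06). For the proximal tubule list, decreases numbered 0 without Control 1 or Iohexol 1 and 1 without Control 2 or Iohexol 2. The CLDN2 call was lost without Control 2, Iohexol 1 or Iohexol 2 (adjusted p from 0.0542 to 0.0805).

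Smaller groups of metabolism and hormone genes were mixed. CYP24A1, which inactivates vitamin D, was at 73.9, 69.2 and 66.4 CPM in the controls and 17.05, 21.02 and 19.95 CPM with iohexol (log2 fold change -1.81 ± 0.11, adjusted p = 7.71e-07), and CYP1B1 (-0.999) fell. The prostaglandin carrier SLCO2A1 (-1.01) fell and the phospholipase PLA2G4C (1.44) rose. Of the IGF axis, the binding protein IGFBP3 was at 185, 187 and 191 CPM in the controls and 64.4, 70.7 and 63.6 CPM with iohexol (log2 fold change -1.47 ± 0.09, adjusted p = 5.55e-07). Polyamine synthesis had 4 decreases of 12, with ODC1 (-0.64), its first enzyme, among them. In the circadian list 7 of 18 rose, among them NPAS2 (1.43) and NR1D1 (0.998). The noncoding RNAs NEAT1 (0.94) and MALAT1 (0.83) rose. Of the iodine and thyroid list few genes were expressed: 5 of 18 genes were tested, and 1, the receptor THRA (0.63), passed. The THRA call was lost without Control 2 or Iohexol 1 (adjusted p from 0.0527 to 0.0547).

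Families with shared name stems were ranked by their median. Beside ribosomal proteins, the lowest medians were those of matrix metalloproteinases, GALNT enzymes, semaphorins and DHRS oxidoreductases. GALNT enzymes start O-glycans on proteins, and 7 of 13 fell, with GALNT10 at 207, 207 and 217 CPM in the controls and 96.9, 96.3 and 105 CPM with iohexol (log2 fold change -1.05 ± 0.08, adjusted p = 4.67e-06) and GALNT2 (-1.01) lower by a like amount, while 1 rose. Sialyltransferases, which cap glycans, had 3 increases and 0 decreases of 12 (median 0.71). Semaphorins had 8 decreases and 2 increases of 18, the latter being SEMA4A (1.93) and SEMA4D (1.06). At the upper end, after histones, stood phospholipase A genes such as PLA2G16 (0.80), synaptotagmins such as SYT11 (0.84) and SYT12 (1.43), inward rectifier potassium channels and the SLC38 carriers. Of 8 KCNJ channels 4 rose, and KCNJ16, a basolateral channel of the tubule, was at 53.9, 47.8 and 47.9 CPM in the controls and 105, 106 and 111 CPM with iohexol (log2 fold change 1.14 ± 0.09, adjusted p = 5.94e-06). For the GALNT enzymes list, decreases numbered 4 without Control 3. For the sialyltransferases, increases numbered 5 without Iohexol 3. For the KCNJ channels, increases numbered 2 without Control 2 or Iohexol 1.

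Among DEGs outside all lists, the 8 increases and 8 decreases with the smallest p-values were named. PRSS35, a secreted serine protease homolog, was at 0.657, 0.825 and 0.728 CPM in the controls and 23.4, 15.7 and 19.2 CPM with iohexol (log2 fold change 4.74 ± 0.23, adjusted p = 1.07e-07), and RAB17, a small GTPase of epithelial trafficking, at 1.31, 1.396 and 1.26 CPM in the controls and 24.5, 20.9 and 17.3 CPM with iohexol (log2 fold change 4.01 ± 0.20, adjusted p = 1.22e-07). DEPTOR, an inhibitor of mTOR, was at 4.09, 4.25 and 3.97 CPM in the controls and 37.4, 30.2 and 30.5 CPM with iohexol (log2 fold change 3.03 ± 0.15, adjusted p = 1.06e-07). The others that rose were SMTNL2 (2.55), PCDH1 (2.02), CPE (1.72), TPD52L1 (1.70) and MRPS6. Among the decreases, SLC16A9, a carnitine carrier, was at 13.7, 12.7 and 11.5 CPM in the controls and 1.31, 1.72 and 1.32 CPM with iohexol (log2 fold change -3.07 ± 0.19, adjusted p = 7.75e-07), and PMEPA1, a feedback inhibitor of TGF-beta signaling, at 227, 275 and 262 CPM in the controls and 89.8, 85.8 and 71.1 CPM with iohexol (log2 fold change -1.59 ± 0.11, adjusted p = 1.66e-06). SCEL (-2.11), SHISA2 (-2.09), CCBE1 (-1.83), SLN (-1.59), NCKAP5 (-1.52) and RASA1 (-1.43) completed this group. In all 16 genes the groups did not overlap, as the choice required.

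Direct contrasts between drugs asked which of these changes differed from those with cisplatin or vancomycin. Iohexol libraries had 1805 DEGs higher (11.1%) and 1012 lower (6.24%) than cisplatin libraries of 16230 genes tested, and 1453 higher (9.05%) and 1733 lower (10.8%) than vancomycin libraries of 16063. These splits depend on the scaling, since library size alone shifted the median of all genes by -0.14 and 0.19 and put 52.5% and 62.0% of the DEGs higher with iohexol, against 64.1% and 45.6%. The osmolyte carrier SLC5A3 was higher with iohexol than with either drug. SLC5A3 differed by 2.42 ± 0.09, adjusted p = 1.20e-09 from cisplatin and by 2.43 ± 0.13, adjusted p = 5.67e-11 from vancomycin. SLC6A12 changed by 1.86 with vancomycin against the shared controls, and iohexol exceeded vancomycin by 2.17 ± 0.14, adjusted p = 3.73e-10. UCA1 differed by 2.97 ± 0.09, adjusted p = 2.57e-10 and 4.46 ± 0.12, adjusted p = 9.44e-15. The pump subunit ATP1B1 was higher too (1.73 ± 0.08, adjusted p = 4.09e-09 and 1.11 ± 0.10, adjusted p = 4.64e-08).

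Of the metallothioneins, MT1X was lower with iohexol, by -2.69 ± 0.16, adjusted p = 3.39e-08 against cisplatin and -2.56 ± 0.21, adjusted p = 8.55e-09 against vancomycin, though for MT2A the difference from cisplatin was small (-0.37 ± 0.08, adjusted p = 0.00234). Against the shared controls EGR1 changed by 1.16 with cisplatin and 1.48 with vancomycin, and IL11 by 2.80 and 3.15. With iohexol EGR1 was lower than with cisplatin (-3.07 ± 0.19, adjusted p = 3.50e-08) and vancomycin (-3.43 ± 0.19, adjusted p = 6.46e-11), and IL11 by -4.45 ± 0.11, adjusted p = 6.79e-11 and -4.83 ± 0.14, adjusted p = 3.34e-14. HES1 and HEY1 were likewise lower than with either drug, HES1 by -1.18 ± 0.11, adjusted p = 1.77e-06 and -1.202 ± 0.14, adjusted p = 7.57e-07. CYP24A1 differed by -2.89 ± 0.10, adjusted p = 6.03e-10 and -1.79 ± 0.12, adjusted p = 1.27e-09. COL14A1 was higher by 4.48 ± 0.08, adjusted p = 3.85e-12 and 2.38 ± 0.11, adjusted p = 6.72e-12. No difference from vancomycin was called for the lysosomal NEU1 (0.02 ± 0.10, adjusted p = 0.884) or the histones HIST1H2AC (0.32 ± 0.15, adjusted p = 0.081) and HIST1H2BD (0.13 ± 0.15, adjusted p = 0.477), and GPNMB was lower with iohexol than with vancomycin (-0.93 ± 0.10, adjusted p = 4.04e-07). Ribosomal protein RPL10 differed by -1.58 ± 0.10, adjusted p = 3.38e-10 from vancomycin and by -0.12 ± 0.07, adjusted p = 0.159 from cisplatin. JAG1 was lower than with cisplatin (-0.68 ± 0.08, adjusted p = 8.56e-06) and vancomycin (-1.16 ± 0.10, adjusted p = 2.67e-08), and THBS1 was higher than with vancomycin (3.08 ± 0.13, adjusted p = 1.29e-12). Genes in this contrast were chosen after their values were seen.

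**Figure D5:**
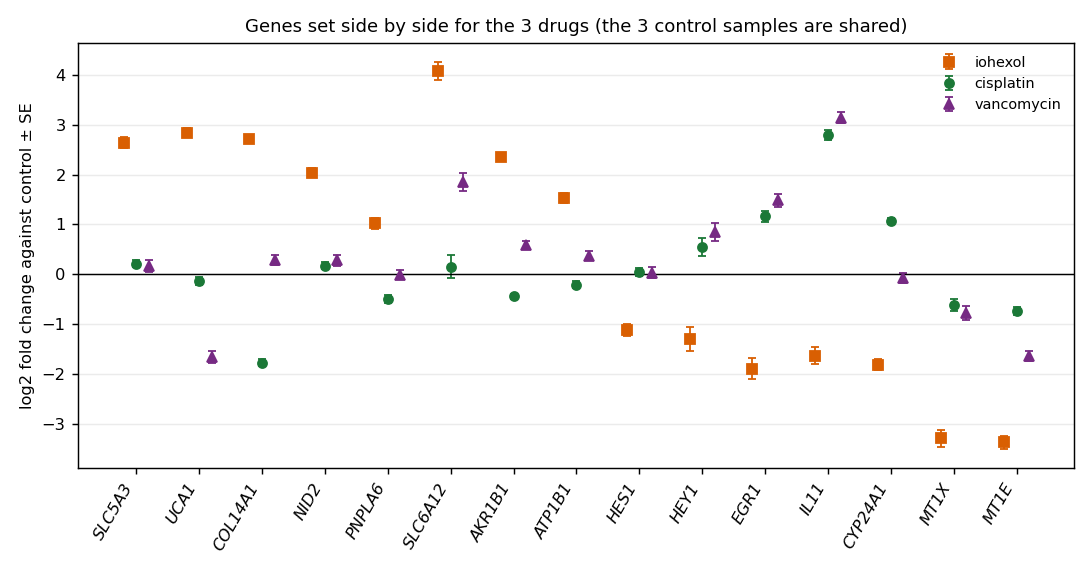
The log2 fold change against the same 3 control libraries, with its standard error, is given for 15 genes and 3 drugs, iohexol (orange squares), cisplatin (green circles) and vancomycin (purple triangles), for genes chosen after their values were seen. Iohexol stands highest for the genes from SLC5A3 to ATP1B1 and lowest from HES1 to MT1E.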

How the data were processed

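RNA from HK-2 cells was poly(A)-selected and made into libraries with a kit that does not mark strand. The deposited table holds raw counts per gene that the authors made with CASAVA 1.8, fastp, HISAT2 2.0.5 and featureCounts 1.5.0-p3, and the submitters' processing notes also name DESeq2 1.20.0. The genome build and strand setting are not given in the sources used here. Reads of overlapping genes cannot be told apart by strand.

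Counts were tested with edgeR 4.0.16 (R 4.3.3, TMM factors, quasi-likelihood F test) on the 3 Iohexol and 3 Control samples, for genes passing filterByExpr (minimum count 10, minimum total 15), with Benjamini-Hochberg adjustment over all genes tested. The fold change carries a standard error from its F statistic. The same fit compared iohexol with cisplatin and with vancomycin. CPM used TMM factors from all 12 samples. The test was also run on simulated data, and the outcome is not reported here. Alternatives were DESeq2 1.42.0, limma-voom (limma 3.58.1), RLE factors, library size alone, other count filters, a fit of all 4 groups, a replicate block, and leaving out each sample.

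The members and lists were chosen with earlier results of these data known. Named genes were, per list, up to 4 members with the largest change among those past the test and at 1 CPM or more, preset defining members and cell type markers, the 8 increases and 8 decreases with the smallest p-values outside all lists, and 2 members of each of the 6 highest and 6 lowest families. Other members named in the text were chosen after their values were seen. Some genes that the rule names are not reported here. Shared sequence was the share of a gene's 31-base stretches found in transcripts of another gene. The depth sets a floor of 3 counts, 0.190 to 0.219 CPM in the 6 samples, which covers counting error only.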

Additional observations from a re-analysis of the deposited data

How the results depend on the processing

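No named gene changed direction where it passed the test in the main fit or under the alternative. Direction was not followed for genes that passed in neither. Of 215 named genes that passed the test 191 passed it under every alternative that tested them. Requiring 10 counts in every sample gave 416 DEGs that rose in place of 630, and 625 lower than with cisplatin in place of 1012. At the adjusted p, the fit of all 4 groups called 2294 decreases in place of 1529, and an unadjusted p under 0.05 gave 2803 increases and 2546 decreases. Without 1 library the DEGs that rose numbered 475 to 731 and those that fell 174 to 214, while at the adjusted p 1027 to 2377 rose and 822 to 2167 fell, the lowest without Control replicate 2 and the highest without Iohexol replicate 3. With library size alone 734 DEGs rose and 164 fell. Apart from the samples or genes left out, the cause was not tested.

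Iohexol and control libraries of the same number did not deviate together (correlations -0.22, 0.0724 and -0.249), and no sample correlated best with its own number, so the replicate numbers were taken as names. With the replicate block 538 DEGs rose and 187 fell, and at the adjusted p 1181 rose and 915 fell. The block took the call from 11 named genes: CD14, CLDN2, EIF3E, GARS, HERPUD1, HSP90AA1, MITF, NR3C1, RPS23, SLC7A5 and VEGFA. With it the translation factors list had 0 decreases, the proteasome subunits 1 and the chaperonin CCT 1. Genes under 1 CPM carried few counts, so differences there were detectable only when large.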
